A study of Homo sapiens with 6 samples.

Results

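The genes described here are the zinc finger cluster at 19q13.43, at the end of the long arm of chromosome 19, together with the genes that lie among them. The list holds 53 genes, 48 of them genes of the C2H2 zinc finger type (called zinc finger members here) and 5 of other kinds (AURKC, SLC27A5, TRIM28, CHMP2A and UBE2M). A probe set annotated with exactly 1 gene symbol was found for 50 of the 53, which are 46 zinc finger members and 4 other members, out of 18417 genes measured in the same way. No such probe set was found for PEG3, ZNF547 and UBE2M. Each of the 50 had exactly 1 probe set of this kind. The region was picked with the difference between these same lines in view, so fold changes and counts of its members are a description and no test is attached to them. In the order of genes of the GRCh38.p14 assembly the list runs from ZNF471 to MZF1, with ZNF471, ZFP28 and ZNF470 on the centromeric side of ZNF71.

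RNA of MCF10A-SNAI1 cells and of MCF10A cells was hybridised to Affymetrix HuGene arrays, 3 for each line. MCF10A cells are human breast epithelial cells that divide without limit but do not form tumours, and MCF10A-SNAI1 is MCF10A transfected with a SNAI1-Flag plasmid, driven by a CMV enhancer and a chicken beta-actin promoter, and selected with puromycin in another laboratory. The control arrays are of untransfected cells, so effects of SNAI1 cannot be told apart from those of carrying a plasmid, of puromycin or of growth apart from the parent cells. Both lines were grown in the same mammary epithelial medium with cholera toxin. The study describes the transcriptomes of each line as reproduced independently, and p-values here rest on the spread among 3 arrays per line. The sources used here do not say whether MCF10A-SNAI1 is 1 clone.

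SNAI1 was at 10.50, 10.53 and 10.50 on the MCF10A-SNAI1 arrays and at 5.80, 5.73 and 5.77 on the MCF10A arrays, in log2 units as deposited. The epithelial cadherin CDH1 was at 5.22, 5.03 and 4.97 on the MCF10A-SNAI1 arrays and at 9.01, 9.13 and 9.00 on the MCF10A arrays. Both checks followed the labels. All 5 measured markers of 8 listed for basal mammary epithelium were lower in MCF10A-SNAI1 cells by more than 2-fold, with means of 5.07 to 11.30, against 9.05 to 13.53 in MCF10A cells. They were KRT5, KRT14, ITGB4, EPCAM and CDH1, which is also the check above, and EPCAM and CDH1 are not specific to basal cells. Of the 4 mesenchymal markers 3 were higher by more than 2-fold. Of 5 luminal markers GATA3 was called higher at 3.25-fold, and the log2 fold changes of KRT8, KRT18, ESR1 and PGR were 0.95, -0.65, 0.03 and 0.01. None of the leukocyte and endothelial markers was called, and their means were 3.03 to 5.20 in MCF10A-SNAI1 cells and 3.07 to 5.17 in MCF10A cells. Within a line, Pearson's r between arrays over all probe sets was 0.995 to 0.996, and for pairs of arrays from different lines it was 0.977 to 0.978.

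Zinc finger proteins of the C2H2 type bind DNA through tandem fingers, each folded around a zinc ion. Most of those encoded in clusters on human chromosome 19 carry a KRAB domain as well, through which they recruit the corepressor TRIM28, also called KAP1. TRIM28 in turn brings in the histone H3 lysine 9 methyltransferase SETDB1 and heterochromatin proteins, and a known use of this system is the silencing of transposable elements. The clusters grew by tandem gene duplication, so neighbours often resemble each other in sequence. TRIM28 itself lies in the same window, near the telomere.

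Most zinc finger members had higher signals in MCF10A-SNAI1 cells, and the shift was usually below 2-fold. A fold change is MCF10A-SNAI1 minus MCF10A on the log2 scale, with the standard error from limma fitted over all probe sets. The median log2 fold change of the 46 zinc finger members was 0.49 (quartiles 0.13 and 0.72, range -0.46 to 1.31), and 38 of them were above 0. For all 18417 genes the median was -0.01 with quartiles of -0.15 and 0.14, and 8730 of them were above 0. The study's methods set a limit of 0.01 on the adjusted p and ask for more than a 2-fold difference, and by this rule 4 zinc finger members were called higher and none lower. Over all genes 3.1% were called higher and 2.54% lower by this rule. With no fold threshold 19 zinc finger members passed as higher and 1 as lower, where 12.1% of all genes passed as higher and 11.2% as lower. The t-test of the study's methods, at the same limit on the adjusted p, passed 9 zinc finger members as higher, all of them among the 19, and 0 as lower. On 31 zinc finger members every MCF10A-SNAI1 array lay above every MCF10A array, and on 1 every MCF10A-SNAI1 array lay below. Of all genes 23.7% were separated upward in this way and 24.6% downward. The region was chosen on this contrast, so these shares are not set against each other as evidence.

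The members called higher by more than 2-fold were ZNF776, ZNF134, ZNF211 and ZNF587, which lie in the middle of the window. ZNF776 was at 7.69, 7.84 and 7.75 on the MCF10A-SNAI1 arrays and at 6.51, 6.58 and 6.26 on the MCF10A arrays. Its arrays were well separated, and the log2 fold change was 1.31 with a standard error of 0.096, which is 2.48-fold. ZNF134 was at 8.00, 8.06 and 8.05 in MCF10A-SNAI1 cells and at 6.87, 7.02 and 6.84 in MCF10A cells, a log2 fold change of 1.13 with a standard error of 0.071. Its spread in MCF10A-SNAI1 cells was small, with an SD of 0.031 over 3 arrays. ZNF211 was at 6.87, 7.18 and 6.73 in MCF10A-SNAI1 cells and at 5.81, 5.80 and 5.85 in MCF10A cells. The second MCF10A-SNAI1 array was the highest for this gene, and its log2 fold change of 1.11 became 0.98, under the 2-fold threshold, without that array. ZNF587, one of a pair of KRAB zinc finger proteins known to bind HERV-K endogenous retroviruses, was at 7.54, 7.60 and 7.40 in MCF10A-SNAI1 cells and at 6.25, 6.50 and 6.55 in MCF10A cells. MCF10A replicate 1 was the lowest array, and the log2 fold change of 1.08 was 0.99 without it.

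Zinc finger members that ranked from 5 to 12 by fold change had log2 fold changes of 0.73 to 0.92, and on each of them the arrays of both lines were apart. ZNF304, a KRAB protein known to direct TRIM28 to the INK4-ARF locus in colorectal cancer cells, was at 6.88, 6.97 and 6.95 in MCF10A-SNAI1 cells and at 5.81, 6.11 and 6.11 in MCF10A cells. ZNF8 was at 8.22, 8.12 and 8.02 in MCF10A-SNAI1 cells and at 7.22, 7.27 and 7.26 in MCF10A cells, a log2 fold change of 0.87 with a standard error of 0.07. Its MCF10A arrays lay close together, and the gap between the lines was wider than the spread in either. ZNF805 had a log2 fold change of 0.86, ZNF419 and ZNF543 of 0.85 each, ZNF460 of 0.79, ZNF416 of 0.78 and ZNF17 of 0.73. Standard errors of these 6 lay between 0.069 and 0.13, and ZNF419 had the widest.

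Some neighbours in the list were higher together. Runs were read over measured members only, so unmeasured members and window genes outside the list are passed over. Of the 50 measured members 21 passed as higher at any fold, against 12.1% of all genes, and the length of runs was not tested. Between ZNF805 and ZNF17, the 6 measured members in a row (ZNF805, ZNF460, ZNF543, ZNF304, ZNF548 and ZNF17) all passed as higher at any fold, with log2 fold changes of 0.61 to 0.92 and a median of 0.82. ZNF547 lies within this run without a probe set of its own, and the one it shares with TRAPPC2B was at 0.28. ZNF772 and ZNF419 made a run of 2, at 0.69 and 0.85, and so did ZNF134 and ZNF211. The last 3 measured members before the telomere, TRIM28, CHMP2A and MZF1, formed another run at 0.45 to 0.72. The other 8 members that passed as higher stood singly between measured members that did not. ZNF776 is such a case, since ZNF671 on its centromeric side was at a log2 fold change of -0.13 and ZNF586 on its telomeric side at 0.13.

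The shift was present on each array of MCF10A-SNAI1 cells, which is a description only, since the region was chosen on this contrast. The median difference from the MCF10A mean over the 46 zinc finger members was 0.36, 0.40 and 0.52 on the MCF10A-SNAI1 arrays, against -0.04, 0.03 and 0.04 on the MCF10A arrays. Values of the MCF10A arrays are taken from their own mean, so they lie near 0 by construction. Of the 46, 39, 37 and 38 lay above their MCF10A mean on these MCF10A-SNAI1 arrays, and 15, 31 and 29 did so on the MCF10A arrays. Over all 18417 genes these counts were 10030, 8123 and 8430 on the MCF10A-SNAI1 arrays and 9210, 9245 and 9110 on the MCF10A arrays. The same median over all genes was 0.03, -0.03 and -0.03 on the MCF10A-SNAI1 arrays and 0.00 on the MCF10A arrays, which the normalization of the deposited table already holds near 0.

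A lower signal was found for 1 zinc finger member by the rule with no fold threshold. ZNF71 was at 6.68, 6.62 and 6.45 in MCF10A-SNAI1 cells and at 7.04, 7.02 and 7.06 in MCF10A cells, a log2 fold change of -0.46 with a standard error of 0.076. Its arrays did not overlap, but it did not pass when any 1 of the MCF10A arrays, MCF10A-SNAI1 replicate 2 or MCF10A-SNAI1 replicate 3 was left out, with log2 fold changes of -0.48 to -0.39. It lies near the centromeric end. In the order of listed members it stands between ZNF470 at 0.13 and PEG3, for which no value was obtained, followed by ZNF264 at 0.62. Genes of the window outside the list are not counted in this order. ZNF814 had a log2 fold change of -0.26, but its arrays overlapped, at 5.92, 6.53 and 6.67 in MCF10A-SNAI1 cells and 6.52, 6.84 and 6.54 in MCF10A cells. Without MCF10A-SNAI1 replicate 1 this value was -0.04.

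The arrays of both lines overlapped for 14 zinc finger members, with log2 fold changes of -0.26 to 0.17. They included ZNF154, ZNF671, ZIK1, ZNF471 and ZSCAN18, genes whose promoters are often reported to be methylated in tumours. ZNF154, ZIK1 and ZNF471 were named with their values in view, and such reports were not tallied for the other members. These 3 also had low mean levels over all arrays, at 4.78, 4.51 and 2.94. ZIK1 was at 4.57, 4.55 and 4.42 in MCF10A-SNAI1 cells and at 4.65, 4.33 and 4.54 in MCF10A cells, and the difference of 0.00 had a standard error of 0.096. ZNF671 was at 5.54, 5.51 and 5.39 in MCF10A-SNAI1 cells and at 5.63, 5.47 and 5.73 in MCF10A cells, a log2 fold change of -0.13 within the spread of the arrays. For ZNF154 the MCF10A-SNAI1 arrays ranged from 4.37 to 5.14 and the MCF10A arrays from 4.63 to 4.82, and the standard error was 0.19. ZNF606, ZSCAN18 and ZNF135 had log2 fold changes of -0.03, -0.05 and -0.09. DNA methylation was not measured here, so a link to it was not tested.

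The values of members were also set out by the brightness of their probe sets. Signal strength depends on the probe set, so it sorts probe sets by brightness and does not rank RNA amounts between genes. Of the 9 zinc finger members in the dimmest 40% of all values (a mean of up to 5.36), 1 passed as higher at any fold, ZNF772, and their median log2 fold change was 0.06. Of the 37 with brighter probe sets 18 passed as higher and 1 as lower, with a median of 0.54. The share of all genes that passed as higher also went up with brightness, at 0.713%, 4.05%, 10.5%, 17.6% and 18.6% in 5 bands of all probe sets from the dimmest to the brightest, with limits at 3.94, 5.36, 6.79 and 8.46. The median change of all genes was -0.01 or -0.02 in each band. In the bands from 5.36 to 6.79 and from 6.79 to 8.46, zinc finger members had medians of 0.51 and 0.54, against 0.15 and 0.12 for zinc finger genes outside the list. The list was chosen on this contrast and the genes outside it were not, so this gap is no test. The table holds no detection calls, so how many dim members were expressed was not decided.

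Promoters show a sequence that many zinc finger members share, and it is printed here because the rule for choosing the genes did not use it. The 250 bases before the start of transcription were available from RefSeq (GRCh38.p14) for 42 of the 48 zinc finger members. The 10-base run GGACTTCCGG, searched on both strands (reverse complement CCGGAAGTCC), was the run held by the most of them, in 14 of the 42, or 33.3%. It was picked for that, so its share among the members is a description. It was in 0.518% of the 15843 protein-coding promoters of the same length, in none of 168 promoters of measured zinc finger genes elsewhere on chromosome 19, in 2 of 252 on other chromosomes, and in 2 of 8 zinc finger genes of the window that are not in the list. In 13 of the 14 it ran on the strand of the gene, and in 11 it lay within 30 bases of the start. Its reverse complement holds GGAA, the core of sites bound by ETS family factors, as background. The next most shared run, AACTACATTA (reverse complement TAATGTAGTT), has other letters and was in 12 of the 42 and in 0.107% of protein-coding promoters. The lines below give the 100 bases before the start for the 3 members with the run that had the highest log2 fold changes, then the 3 with the lowest, each 5′ to 3′ on the strand of the gene, with the run in capitals.
ZNF776: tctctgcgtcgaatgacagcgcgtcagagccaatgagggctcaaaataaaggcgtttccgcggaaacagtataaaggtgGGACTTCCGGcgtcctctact
ZNF134: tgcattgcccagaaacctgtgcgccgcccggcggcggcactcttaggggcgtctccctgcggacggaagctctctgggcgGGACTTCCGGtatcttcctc
ZNF805: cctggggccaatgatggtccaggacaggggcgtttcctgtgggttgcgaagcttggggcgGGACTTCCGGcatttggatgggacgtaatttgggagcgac
ZIK1: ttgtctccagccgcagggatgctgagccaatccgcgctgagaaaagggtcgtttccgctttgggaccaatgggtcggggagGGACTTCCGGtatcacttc
ZNF671: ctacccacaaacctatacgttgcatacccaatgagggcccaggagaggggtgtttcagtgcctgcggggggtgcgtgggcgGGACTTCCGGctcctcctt
ZNF814: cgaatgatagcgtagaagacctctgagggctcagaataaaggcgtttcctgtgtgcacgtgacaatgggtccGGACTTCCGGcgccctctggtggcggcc

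These stretches are ZNF776 at chr19:57746715-57746814, ZNF134 at chr19:57614142-57614241, ZNF805 at chr19:57240532-57240631 and ZIK1 at chr19:57584045-57584144, all on the plus strand, and ZNF671 at chr19:57727625-57727724 and ZNF814 at chr19:57889038-57889137 on the minus strand. The run was present in members of both kinds, those that passed and those that did not. Of the 18 promoters of zinc finger members that passed as higher 6 had it, or 33.3%, and of the 22 promoters of those that passed in neither direction 7 had it, or 31.8%. The 13 measured members with the run had a median log2 fold change of 0.54 and a range of -0.26 to 1.31, and the 28 without it a median of 0.49 and a range of -0.46 to 1.08. ZNF776 at 1.31 and ZNF671 at -0.13 thus carry the same 10 bases within a few bases of the start, at distances of 11 and 9.

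SNAI1 protein binds E-boxes of the letters CAGGTG. This motif, searched on both strands as CAGGTG or CACCTG, was in 2 of the 42 promoters of zinc finger members, or 4.76%, those of ZNF805 and ZNF606. It was in 17.1% of all protein-coding promoters of the same length, in 14.3% of those of zinc finger genes on the rest of chromosome 19 and in 15.1% on other chromosomes. The log2 fold changes of ZNF805 and ZNF606 were 0.86 and -0.03, so both genes with the letters were on different sides of the call. The promoters of zinc finger members had a median of 16.5 CpG dinucleotides in 250 bases, against 17 over all protein-coding promoters. No match says only that these letters were not in this window.

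The 4 measured members of other kinds had log2 fold changes of -0.13 to 0.72, with a median of 0.25. CHMP2A, a subunit of the ESCRT-III membrane scission machinery, was at 10.91, 10.96 and 10.97 in MCF10A-SNAI1 cells and at 10.24, 10.26 and 10.17 in MCF10A cells. This log2 fold change of 0.72 had a standard error of 0.059, and the arrays of both lines were apart. TRIM28, the corepressor of KRAB zinc finger proteins, was at 11.72, 11.74 and 11.74 in MCF10A-SNAI1 cells and at 11.37, 11.29 and 11.20 in MCF10A cells, with arrays apart and a log2 fold change of 0.45. AURKC, a kinase of meiosis that lies between ZNF264 at 0.62 and ZNF805 at 0.86, was at 5.83, 5.72 and 5.77 in MCF10A-SNAI1 cells and at 5.61, 5.84 and 5.71 in MCF10A cells. Its arrays overlapped, at a log2 fold change of 0.06 with a standard error of 0.077. SLC27A5, a liver enzyme of bile acid conjugation, was at 6.13 on all MCF10A-SNAI1 arrays and at 6.25, 6.23 and 6.29 on the MCF10A arrays, a log2 fold change of -0.13. At any fold CHMP2A and TRIM28 passed as higher and none passed as lower, and none was called by more than 2-fold. With 4 genes, no difference between members of other kinds and zinc finger members was read from these medians.

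ZNF274, a KRAB protein known to bind the 3′ ends of zinc finger genes and to recruit SETDB1 there, was at 7.47, 7.31 and 7.34 in MCF10A-SNAI1 cells and at 6.75, 6.92 and 6.73 in MCF10A cells. Its log2 fold change was 0.58 with a standard error of 0.08. MZF1, a SCAN domain zinc finger factor first described in myeloid cells and the last member before the telomere, was at 7.46, 7.50 and 7.41 in MCF10A-SNAI1 cells and at 6.80, 6.85 and 6.87 in MCF10A cells. Both were higher on all arrays and by less than 2-fold. Of the measured members between them ZNF8, TRIM28 and CHMP2A passed as higher at any fold, and ZNF544, ZNF324, ZNF324B and SLC27A5 did not pass. Also between them lie the BTB domain gene ZBTB45, at a log2 fold change of 0.26, and the SCAN domain genes ZSCAN22 and ZNF446, at 0.48 and 0.22. None of the last 3 passed at any fold, though on each every MCF10A-SNAI1 array lay above every MCF10A array, as on 23.7% of all genes.

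Close paralogs can share probes, so values of such pairs are uncertain. ZNF587 and ZNF417, the pair known to bind HERV-K, had log2 fold changes of 1.08 and 0.49, with standard errors of 0.099 and 0.12. A further probe set annotated with both ZNF587 and ZNF587B was at 8.51, 8.60 and 8.59 in MCF10A-SNAI1 cells and at 7.53, 7.64 and 7.58 in MCF10A cells, a log2 fold change of 0.98. ZNF324 and ZNF324B stood at 0.27 and 0.19, and ZNF772 and ZNF773 at 0.69 and 0.54. ZNF416 and ZNF814, listed here as a pair, stood at 0.78 and -0.26, and a probe set shared by ZNF587B and ZNF814 was at 0.19. A probe set shared by ZFP28 and ZNF229, which lies outside the window, was at 1.84, whereas the probe set of ZFP28 alone was at 0.02. Shared probe sets also exist for the members without one of their own, at 0.09 for ZIM2 with the imprinted PEG3 and at 0.28 for ZNF547 with TRAPPC2B.

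Genes around and among the members had smaller median changes, and most of these groups had dimmer probe sets. The median level was 6.52 for zinc finger members, against 5.02 for the window genes that are not in the list and 4.42 for the centromeric side, so these groups are not matched on brightness. Between ZNF471 and MZF1, 13 further genes were measured that are not in the list, 6 of them zinc finger genes (ZNF835, ZIM3, ZSCAN4, ZSCAN1, ZNF837 and ZNF584). None of the 13 passed in either direction at any fold, and their median log2 fold change was 0.08 (range -0.13 to 0.39). Of all genes 12.1% passed as higher and 11.2% as lower. In the band from 3.94 to 5.36, which holds their median level, these shares were 4.05% and 2.78%. With 13 genes, the count of none is not read as setting them apart. The 6 zinc finger genes among them had a median log2 fold change of 0.03. Their median level was 6.56, close to that of zinc finger members, but not all 6 are matched on brightness. ZIM3 had means of 3.54 in MCF10A-SNAI1 and 3.57 in MCF10A cells, and ZSCAN4 of 3.08 and 3.03. With these 6 added, 19 of 52 zinc finger genes of the window passed as higher and the median was 0.27. The nearest measured gene on the centromeric side, ZNF667-AS1, was 0.16 higher on the log2 scale, with overlapping arrays (adjusted p = 0.628 from limma). Of 15 measured genes on that side 1 passed as higher, ZNF583 at 0.62 (adjusted p = 0.00164 from limma). On the telomeric side 1 gene was measured beyond MZF1, CENPBD2P, at 0.40 (adjusted p = 0.00327 from limma).

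Zinc finger genes elsewhere in the genome also had smaller median changes. Of 199 measured zinc finger genes on the rest of chromosome 19, 51 (25.6%) passed as higher at any fold and 13 as lower. The shares of all genes were 12.1% and 11.2%. Their median log2 fold change was 0.09, with quartiles of -0.11 and 0.49, and the highest was 1.83. By more than 2-fold 14 were called higher and 6 lower, against 3.1% and 2.54% of all genes. The median level was 5.47, dimmer than the 6.52 of zinc finger members. Of 318 on other chromosomes 50 (15.7%) passed as higher and 14 as lower, with a median of 0.09 and quartiles of -0.06 and 0.27. The 1047 other genes of chromosome 19 had a median of 0.01. Since the 19q13.43 genes were picked on this contrast, the larger median of 0.49 in zinc finger members is not shown to be particular to them.

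KRAB zinc finger proteins act through corepressors. A list of 28 genes taken to act with them, besides TRIM28, was made by hand, and all were measured. It is called the corepressor list here, though not all of its genes are established corepressors of KRAB proteins. None was called by more than 2-fold, and with no fold threshold 5 passed as higher (17.9%) and 1 as lower. The shares of all genes were 12.1% and 11.2%. The median level of the list was 8.74, in the brightest band, where 18.6% of all genes passed as higher and 19.7% as lower. The share passing as higher is thus near that of genes of like brightness. SETDB1, the histone methyltransferase that TRIM28 recruits, was at 9.05, 9.08 and 9.04 in MCF10A-SNAI1 cells and at 8.66, 8.56 and 8.63 in MCF10A cells, which is 0.44 higher with a standard error of 0.058 (adjusted p = 0.00149 from limma). Its partner ATF7IP was higher at 0.62 (adjusted p = 0.00249), as were the chromatin remodellers CHD3 at 0.52 (adjusted p = 8.59e-04) and ATRX at 0.64 (adjusted p = 7.49e-04), and the TRIM28 relative TRIM24 at 0.39 (adjusted p = 0.00728). The methyltransferase SUV39H1 was lower at -0.32 (adjusted p = 0.00923). The heterochromatin proteins CBX1, CBX3 and CBX5 were at -0.06, 0.01 and 0.27, with adjusted p = 0.55, 0.949 and 0.0227 from limma. None of them passed, though every MCF10A-SNAI1 array lay above every MCF10A array for CBX5.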

How the data were processed

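The authors deposited 1 table of log2 values for 33297 probe sets on 6 Affymetrix HuGene-1_0-st-v1 arrays, and per the labels 3 arrays are of MCF10A-SNAI1 and 3 of MCF10A cells. The study's methods give GC RMA in GeneSpring, while GCOS, Expression Console 1.1 and MAS5 stand in the submitters' processing notes, and the sources used here do not say which of them made the table. Array medians lay between 6.04 and 6.09. Background correction affects dim probe sets most, and it was not varied. Values were kept as deposited and no filter was applied.

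In the platform's annotation 19460 probe sets carry a single symbol, 1754 more than 1 and 12083 none. Genes were taken from the first kind, and the probe set with the highest mean over all arrays stood for a gene. Chromosome and gene order came from RefSeq GRCh38.p14, which held 18392 of the 18417 genes. Coordinates are given only for printed promoters, because no build is named for the array. MCF10A-SNAI1 was compared with MCF10A in R 4.3.3 with limma 3.58.1 (empirical Bayes), and p-values of all 33297 probe sets were adjusted together by Benjamini-Hochberg. A gene passed at any fold with an adjusted p below 0.01, and was called with a fold change above 2 as well.

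On simulated arrays limma passed 25.4% of 67 probe sets changed by 0.5 on the log2 scale. Of the 33297 simulated probe sets only 67 more were changed by 1.5 and 66 by 3, whereas 4279 genes passed at any fold in the data. With so few changed probe sets the adjustment of p-values is stricter, so this share is not the sensitivity reached in the data. Members, lists, named genes and alternatives were chosen with earlier results of these data known. Named were the other members, the 12 highest and 6 lowest zinc finger members, members with known roles, paralog pairs, genes of the corepressor list that passed and the nearest neighbours. ZIK1, ZFP28, ZNF154, ZNF471, ZNF264, ZNF470, ZNF548, ZNF586, ZNF583, ZBTB45, ZSCAN22, ZNF446, ZNF329, CBX1, CBX3 and CBX5 were added with their values in view. Results were recomputed with quantile normalization or median centring, without single arrays, with a block for the replicate number, with dim probe sets removed, with 2 other priors, with the methods' t-test, at any fold, and with probe sets averaged. Protein features were planned, but no protein sequences were used here. The alternative for linear values was not run, since the values are log2.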

Additional observations from a re-analysis of the deposited data

How the results depend on the processing

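The count of 4 zinc finger members called higher by more than 2-fold stayed at 4 under quantile normalization, median centring, both filters, both other priors, the probe set mean and the replicate block. It was 3 with the methods' t-test, which did not call ZNF211. Leaving out 1 array gave 3 to 4, with ZNF587 lost without MCF10A replicate 1 and ZNF211 without MCF10A-SNAI1 replicate 2. With no fold threshold 19 zinc finger members were higher and 1 lower, and 2 other members, 6 genes of the corepressor list and 4279 genes in all were called. The methods' t-test with no fold threshold passed 9 zinc finger members as higher, all among the 19, and 0 as lower, and 1459 of all genes as higher, against 2220 by limma. Without 1 array 17 to 20 zinc finger members passed as higher and 0 to 1 as lower. The lower one, ZNF71, did not pass without any 1 of the MCF10A arrays or MCF10A-SNAI1 replicate 2 or 3. The median log2 fold change was 0.39 to 0.48 for zinc finger members and 0.23 to 0.28 for other members when 1 array was left out. With the filter at the median of all values, which removes dim members, it was 0.58 and 0.45. The replicate number as a block passed 18 zinc finger members as higher, 16 of them among the 19, and 0 as lower. Deviations of same-numbered arrays correlated at r = 0.115, 0.122 and -0.00618, and those of the 6 differently numbered pairs at -0.134 to 0.034. The first 2 are the highest of the 9, but not every same-numbered pair passed 0.1, so the numbers were not treated as pairing the arrays. Depth does not apply to arrays, and 3 per line limit the precision.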
